A study of Mus musculus with 10 samples.

Results

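Alpha-fetoprotein (Afp) and 5 genes tied to the fetal liver programme were followed in mouse livers after knockdown of the Rab5 GTPases, small proteins that organise early endosomes. The genes were Afp, H19, Gpc3, Igf2, Dlk1 and Zhx2. The array measured 18193 genes by at least 1 probe set with a single symbol. Every probe set whose platform symbol included one of the names was taken, which gave 12 probe sets of 45101 in the table. Afp was chosen by its measured rise between Rab5 and control siRNA, the largest of any gene when the brightest probe set stood for each, and the others for what is known of them. All livers came from male C57BL/6 NHsd mice, an inbred strain, and were taken on day 5. There were 4 livers after siRNAs against all Rab5 genes and 4 after a control siRNA, both given in lipid nanoparticles at 1.5 mg/kg through the tail vein, and 2 livers after phosphate-buffered saline (PBS) without nanoparticles. The control RNA is scrambled and non-targeting in the sample titles but directed at luciferase in the series' design. Ages are not given in the sources used here, and no label says that the livers of a group are separate animals, so a p-value here covers only how far these samples differ, which may be technical.

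The fetal liver makes large amounts of alpha-fetoprotein, a secreted relative of albumin, and shuts the gene down after birth. In mice the repressor Zhx2 helps to keep Afp, the imprinted non-coding RNA H19 and the cell-surface proteoglycan Gpc3 silent in the adult liver, and Zbtb20 is a second postnatal repressor of Afp. Igf2, a fetal growth factor, and Dlk1, a surface protein of hepatoblasts, are imprinted genes that are also shut down after birth. Several of these genes return in regenerating liver and in liver tumours.

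Afp lies next to albumin (Alb), its adult relative, with no protein-coding gene between them in the RefSeq table of GRCm38.p6. Their promoters are shown because the relatives behaved differently on the arrays. Each line holds 250 bases before and 50 bases after the annotated start on the plus strand, from RefSeq (GRCm38.p6). The Afp window is chr5:90490464-90490763 and the Alb window is chr5:90460620-90460919. Capitals mark matches to 5 motifs searched on both strands.
Afp: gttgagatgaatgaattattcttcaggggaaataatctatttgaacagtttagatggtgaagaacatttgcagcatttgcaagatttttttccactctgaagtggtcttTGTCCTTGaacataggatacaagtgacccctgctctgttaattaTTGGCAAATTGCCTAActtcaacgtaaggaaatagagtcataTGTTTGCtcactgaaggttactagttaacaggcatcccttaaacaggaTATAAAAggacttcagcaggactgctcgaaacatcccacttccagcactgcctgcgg
Alb: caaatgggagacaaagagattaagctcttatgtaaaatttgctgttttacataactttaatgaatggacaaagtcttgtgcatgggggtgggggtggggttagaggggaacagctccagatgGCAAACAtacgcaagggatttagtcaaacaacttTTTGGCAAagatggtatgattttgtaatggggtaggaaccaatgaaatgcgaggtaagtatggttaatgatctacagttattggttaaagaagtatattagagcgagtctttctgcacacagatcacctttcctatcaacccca

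The Afp window held a nuclear factor 1 (NF1) motif, TTGGC and GCC spaced 5 bases apart, at bases -97 to -85 before the start. It overlapped TTGCNNAA, a C/EBP motif in which N is any base, at -89 to -82. CAAGGNCA, a motif of the nuclear receptor NR5A2, was found on the minus strand at -141 to -134, the forkhead motif TGTTTNC at -55 to -49, and TATAAAA at -7 to -1. The Alb window had forkhead and C/EBP matches on the minus strand, but not the letters of the NF1, NR5A2 and TATA motifs. Of 32851 promoter windows of the same length, 1.38% held the NF1 motif, 6.71% the NR5A2 motif, 10.8% the C/EBP motif, 20.5% the forkhead motif and 5.48% TATAAAA. The motifs were chosen with the Afp sequence in view, and a match is a description of letters, not of binding.

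Values are log2 expression after robust multi-array average normalisation, which equalises the arrays, so a change of all transcripts together would not be seen. The table median was 4.33. No detection calls were used, so a dim value has no measured background and its changes are compressed. Arrays of the same group correlated across probe sets with r between 0.988 and 0.995, and arrays of unlike groups between 0.975 and 0.994 (probe sets are not independent replicates). The targeted genes Rab5a and Rab5c had 28.6% and 25.1% of the control siRNA signal left, while the dim Rab5b differed by -0.24 (limma adjusted p = 0.273). Hepatocyte markers were bright in every liver, with Alb between 13.89 and 14.14. In whole liver, fewer cells of a type and less RNA per cell cannot be told apart.

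Afp was far higher in the Rab5 siRNA livers. In the brightest of its 5 probe sets (1416645_a_at) the 4 Rab5 siRNA livers had 6.33, 7.85, 7.90 and 8.23, the 4 control siRNA livers had 4.02, 3.96, 4.00 and 4.29, and the PBS livers had 4.20 and 4.16. Every Rab5 siRNA liver lay above every other liver. The means were 7.58 ± 0.850 with Rab5 siRNA, 4.07 ± 0.148 with control siRNA (SD, n = 4 each) and 4.18 with PBS (n = 2). The difference of 3.51 (SE 0.289) between Rab5 and control siRNA is an 11.4-fold higher signal, with a 95% interval of 7.44 to 17.5. All control siRNA and PBS values of this probe set lay below the table median. Because this difference chose the gene, it is given without a test. Its size and interval are not adjusted for that choice and can overstate the rise.

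The choice rested on 1 probe set per gene, that with the highest mean. Over all probe sets the largest difference was 3.58, at a probe set of D17H6S56E-5 whose companion stood at 3.09, and the Afp probe set came next at rank 2. Just after it came Mtmr11 (3.31), Ly6d (3.29), Tubb2a (3.08) and Gstm3 (3.05).

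The 4 other Afp probe sets differed in how far they showed the rise. In 1416646_at the Rab5 siRNA livers had 5.27, 5.84, 5.91 and 6.19, against 4.51, 4.09, 4.16 and 4.41 with control siRNA, and 4.13 and 4.13 with PBS. In 1436879_x_at they had 3.57, 4.23, 4.47 and 4.34, against 2.73, 2.64, 2.54 and 2.79 with control siRNA, and 2.47 and 2.47 with PBS. In both probe sets the Rab5 siRNA livers stood clear of all others, with differences from control siRNA of 1.51 (SE 0.164) and 1.48 (SE 0.157). These are 2.85-fold and 2.78-fold higher signals, a smaller step than that of the brightest probe set.

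The remaining pair, designed from a single other accession, differed little between the groups. In 1436881_x_at the Rab5 siRNA livers had 2.72, 3.45, 3.16 and 3.25, against 2.61, 2.96, 2.38 and 2.57 with control siRNA, and 2.72 and 2.80 with PBS. In 1436880_at they had 3.35, 3.39, 3.87 and 3.64, against 3.38, 3.30, 3.37 and 3.26 with control siRNA, and 3.47 and 3.39 with PBS. The groups overlapped in both, with differences of 0.51 (SE 0.151) and 0.24 (SE 0.116), and no liver reached the table median in either. Over the 10 arrays the 4 probe sets followed the brightest one with Pearson's r of 0.987, 0.988, 0.818 and 0.668 (1416646_at, 1436879_x_at, 1436881_x_at and 1436880_at), which mostly restates the step between groups. Where each probe set lies in the transcript was not analysed here.

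**Figure D1:**
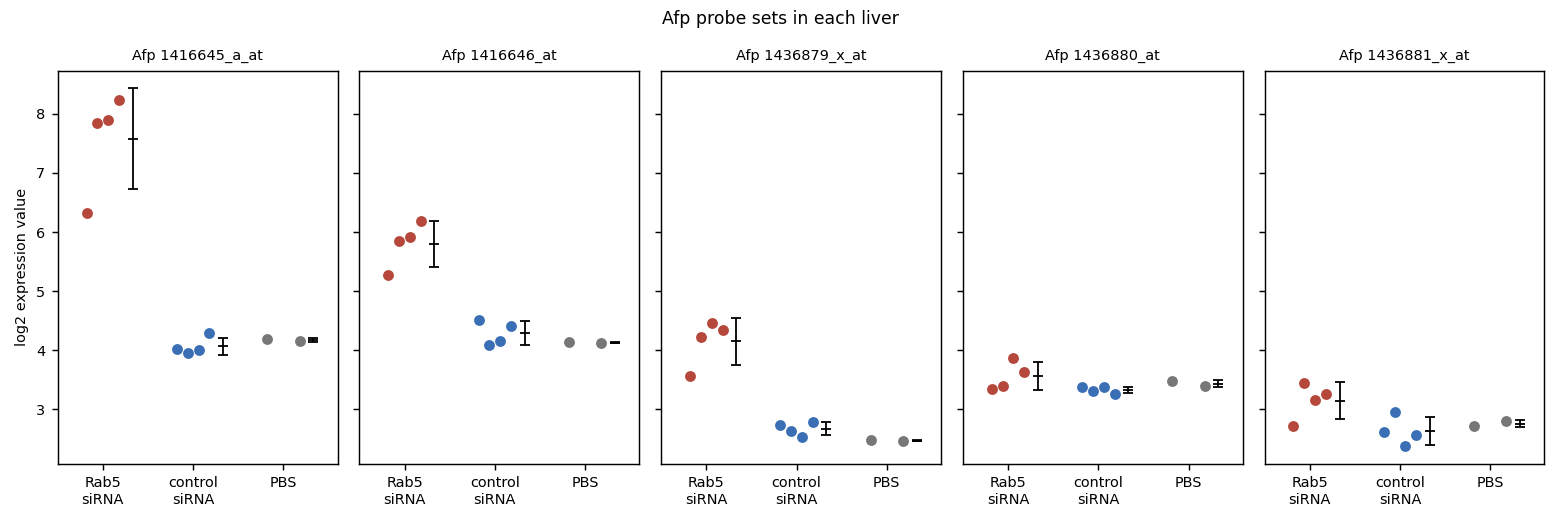
The log2 values of the 5 Afp probe sets are plotted for each liver, with the mean and SD of each group as a bar beside its points (4 Rab5 siRNA, 4 control siRNA and 2 PBS livers). In the 3 panels on the left every Rab5 siRNA liver lies above all other livers, and in the 2 panels on the right the groups overlap.

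The Rab5 and control siRNA groups did not overlap in 3 of the 5 Afp probe sets, beside 15.4% of all probe sets, and nothing is read from this count because the contrast chose the gene. Rab5 siRNA replicate 1 had the smallest rise. Its brightest Afp probe set stood 2.26 above the control siRNA mean, while replicates 2, 3 and 4 stood 3.78, 3.84 and 4.17 above it. Without that liver the difference was 3.93. The same liver had the lowest Rab5a value (6.28, with 7.10, 6.91 and 7.16 in the other Rab5 siRNA livers) but the highest Rab5c value (7.36, with 7.22, 7.28 and 6.99 in the others).

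A measure used to judge RNA quality also differed between these livers for Actb. The log2 signal of Actb at the 3' end minus that at the 5' end was 2.59, 2.75, 2.68 and 2.68 with Rab5 siRNA, against 2.84, 3.23, 2.89 and 2.86 with control siRNA, and 2.83 and 3.13 with PBS. The Rab5 siRNA livers lay below all others, whereas the same measure of Gapdh overlapped between the groups. Whether the Actb difference reflects RNA quality was not tested, nor was its part in the Afp values and in the gene lists.

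The nanoparticles with control siRNA left Afp near the PBS level. Control siRNA minus PBS differed by -0.11 (SE 0.354) in the brightest probe set and by -0.13 to 0.20 in the other 4. These groups did not overlap in 2 of the 5 probe sets (1436879_x_at and 1436880_at), beside 13% of all probe sets. Rab5 siRNA minus PBS, which shares the Rab5 siRNA livers, stood at 3.40 (SE 0.354), 1.67 (SE 0.200) and 1.68 (SE 0.193) in the 3 responding probe sets, the 3 of 5 in which these groups did not overlap (27.8% of all probe sets). These values carry no test either, since livers that chose Afp enter them.

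The albumin family showed no such step. Alb, the main adult plasma protein, had 14.11, 14.10, 14.08 and 14.14 with Rab5 siRNA, against 14.08, 14.03, 14.05 and 14.08 with control siRNA, and 14.01 and 13.89 with PBS. The Alb difference of 0.05 (SE 0.0867, limma adjusted p = 0.801) did not pass, at a signal near the top of the array scale, where steps are also compressed. Afamin (Afm), another carrier of the family and the neighbour of Afp on its other side, had 10.35, 10.02, 9.86 and 10.06 with Rab5 siRNA, against 10.31, 10.05, 10.38 and 10.45 with control siRNA. Its groups overlapped (-0.23, SE 0.121, adjusted p = 0.286). The vitamin D carrier Gc was not analysed here. Of the family members measured beside Afp, 0 of 2 were called, beside 14.6% of all genes. So few genes say nothing about the family by their count.

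No change was detected in the other 5 genes. Of their 7 probe sets 0 passed an adjusted p of 0.05 for Rab5 against control siRNA, by limma with Benjamini-Hochberg adjustment over all probe sets, where 10.9% of all 45037 probe sets tested were called (6.21% up and 4.74% down). Their differences lay between -0.12 and 0.16. The groups overlapped in all 7, where only 15.4% of all probe sets did not overlap, so little is read from this count. The median over all probe sets was -0.03.

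H19 and Gpc3 share the repressor Zhx2 with Afp. The only probe set that lists H19 (1448194_a_at) also lists Mir675, a microRNA gene that lies within H19, so its signal cannot be given to one of them. It had 3.46, 3.25, 3.33 and 3.49 with Rab5 siRNA, against 3.19, 3.32, 3.31 and 3.27 with control siRNA, and 3.50 and 2.71 with PBS. All livers were well below the table median, and the difference of 0.11 (SE 0.140, adjusted p = 0.706) was no larger than the spread. Its PBS livers lay further apart than any livers of the other groups. Rab5 siRNA minus PBS was 0.28 (adjusted p = 0.442), but 0.68 (adjusted p = 0.0266) without PBS replicate 1 and -0.12 without PBS replicate 2, so this value rests on single PBS livers.

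Gpc3, a glypican that anchors growth factors at the cell surface, had 4.34, 3.90, 3.95 and 3.86 with Rab5 siRNA, against 3.89, 4.16, 3.75 and 4.02 with control siRNA, and 3.95 and 3.80 with PBS. Only Rab5 siRNA replicate 1, the liver with the least Afp among its group, reached the table median. The difference of 0.06 (SE 0.125, adjusted p = 0.842) had a 95% interval of -0.21 to 0.32 at this dim probe set. Beside 8.62% up and 6% down among all genes, 0 of the 6 glypicans rose and 1 fell. This was Gpc1 (-0.48, SE 0.141, adjusted p = 0.0426), whose adjusted p was 0.139, 0.0718 and 0.0969 without Rab5 siRNA replicates 2, 3 and 4, 0.113, 0.0691 and 0.0522 without control siRNA replicates 1, 3 and 4, and 0.0572 without either PBS liver. The brighter Gpc4 stood at 0.18 (adjusted p = 0.383).

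**Figure D2:**
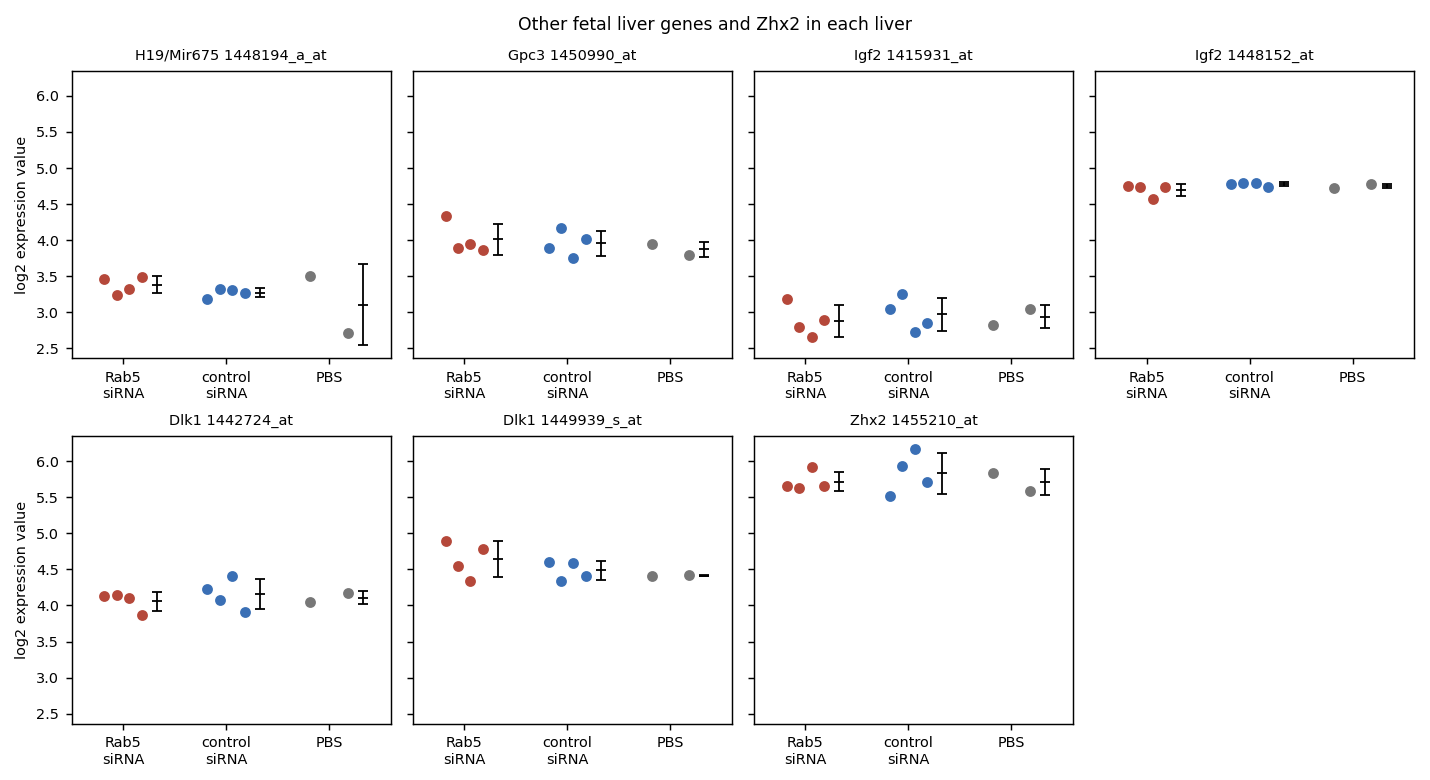
The log2 values of the 7 probe sets of H19 with Mir675, Gpc3, Igf2, Dlk1 and Zhx2 are plotted for each liver on a common axis, with group means and SD as bars. In every panel the Rab5 siRNA livers overlap the control siRNA livers.

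Igf2 was measured by a pair of probe sets. The brighter (1448152_at) had 4.75, 4.73, 4.57 and 4.74 with Rab5 siRNA, against 4.77, 4.79, 4.80 and 4.74 with control siRNA, and 4.73 and 4.77 with PBS. These were the tightest groups among the 12 probe sets for control siRNA (SD 0.0259), and the difference of -0.08 (SE 0.0895, adjusted p = 0.682) had a 95% interval of -0.27 to 0.12. The other Igf2 probe set (1415931_at) had 3.18, 2.80, 2.66 and 2.90 with Rab5 siRNA, against 3.05, 3.26, 2.73 and 2.86 with control siRNA, and 2.83 and 3.05 with PBS (difference -0.09, SE 0.136, adjusted p = 0.759). Neither probe set separated the groups.

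Dlk1 was also read by a pair. In 1449939_s_at the Rab5 siRNA livers had 4.90, 4.55, 4.33 and 4.79, against 4.60, 4.33, 4.59 and 4.41 with control siRNA, and 4.41 and 4.42 with PBS. In 1442724_at they had 4.13, 4.14, 4.10 and 3.87, against 4.23, 4.07, 4.41 and 3.91 with control siRNA, and 4.04 and 4.17 with PBS. The differences of 0.16 (SE 0.124, adjusted p = 0.505) and -0.10 (SE 0.117, adjusted p = 0.692) pointed in opposite directions and did not pass.

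Dlk1 and the non-coding Meg3 are neighbours in an imprinted region that also gives rise to Rian and Mirg. Meg3 (0.27, adjusted p = 0.182) and Rian (0.10, adjusted p = 0.646) did not pass, although 1 of 11 probe sets of Meg3 was called up. Mirg stood at -0.33 (adjusted p = 0.0413), and 1 of its 2 probe sets was called, the other standing at -0.01. The adjusted p was at or above 0.0818 without any one of Rab5 siRNA replicates 2 to 4 or control siRNA replicates 1 to 3. Against PBS, Mirg differed by -0.05 with Rab5 siRNA (adjusted p = 0.906). Of 19 imprinted growth genes in all 2 rose and 2 fell, beside 8.62% up and 6% down among 18193 genes at 1 probe set each. The median of the imprinted genes was 0.00, and that of all genes was -0.02. Phlda2, a growth-restraining imprinted gene of the placenta, rose by 1.18 (SE 0.177, adjusted p = 0.000359), with 5.42, 5.92, 6.12 and 5.35 in Rab5 siRNA livers, against 4.36, 4.62, 4.85 and 4.25 in control siRNA livers. Sgce, a sarcoglycan, rose by 0.89 (adjusted p = 0.00832), while another, dimmer probe set of it stood at 0.12. The amino acid transporter Slc38a4 fell by 0.87 on the log2 scale (SE 0.0952, adjusted p = 2.37e-05).

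The receptors and binding proteins through which IGF2 acts were measured too. Igf2r, which clears IGF2 from the cell surface, differed by 0.29 (adjusted p = 0.117), with 7.71, 7.83, 7.75 and 7.84 in Rab5 siRNA livers, against 7.49, 7.53, 7.49 and 7.47 in control siRNA livers. These groups did not overlap, but a PBS liver, at 7.707, lay only just below the lowest Rab5 siRNA liver (7.708). Igf1r, the main signalling receptor, stood at -0.16 (adjusted p = 0.434), although 1 of its 5 probe sets was called down. Of 12 genes in this list 1 rose (Igfbp1) and 3 fell (Igfbp3, Igfals and Insr). Among all genes 8.62% rose and 6% fell. For Rab5 siRNA against PBS, where 7.82% of all probe sets were called, 0 of the 12 rose and 2 fell. There Igfbp1 stood at 0.14 (adjusted p = 0.848) and Igfbp3 at -0.76 (adjusted p = 0.189). Igfals differed by -1.04 (SE 0.172, adjusted p = 0.000881). The call of Igfbp1 (0.69, adjusted p = 0.0312) ended without Rab5 siRNA replicate 3 or 4 (0.0588 and 0.100) and without control siRNA replicate 2 or 4 (0.0882 and 0.0851).

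No change of Zhx2 itself was detected. It had 5.65, 5.63, 5.92 and 5.66 with Rab5 siRNA, against 5.52, 5.93, 6.17 and 5.71 with control siRNA, and 5.84 and 5.58 with PBS. All Rab5 siRNA values fell inside the control siRNA range. The difference of -0.12 (SE 0.135, adjusted p = 0.677) had a 95% interval of -0.40 to 0.17, so a fall to 0.756 of the control signal is the largest within it.

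Beside 8.62% up and 6% down among all genes, 1 of the 4 genes Zhx1, Zhx2, Zhx3 and Zbtb20 fell and 0 rose. This was Zhx3, which had 6.82, 6.72, 6.83 and 6.75 with Rab5 siRNA, against 7.18, 7.24, 7.52 and 7.30 with control siRNA, and 7.57 and 7.45 with PBS (difference -0.53, SE 0.100, adjusted p = 0.00246). The groups of Zhx3 did not overlap, but 1 of its 6 probe sets was called, the other 5 lying as high as 0.01. Zbtb20, the other known postnatal repressor of Afp, had 8.42, 8.55, 8.81 and 8.56 with Rab5 siRNA, against 8.42, 8.60, 8.49 and 8.93 with control siRNA, and 8.59 and 8.61 with PBS. Its brightest probe set differed by -0.02 (SE 0.123, adjusted p = 0.942), and 0 of its 9 probe sets were called. Zhx1 stood at -0.10 (SE 0.181, adjusted p = 0.808).

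**Figure D3:**
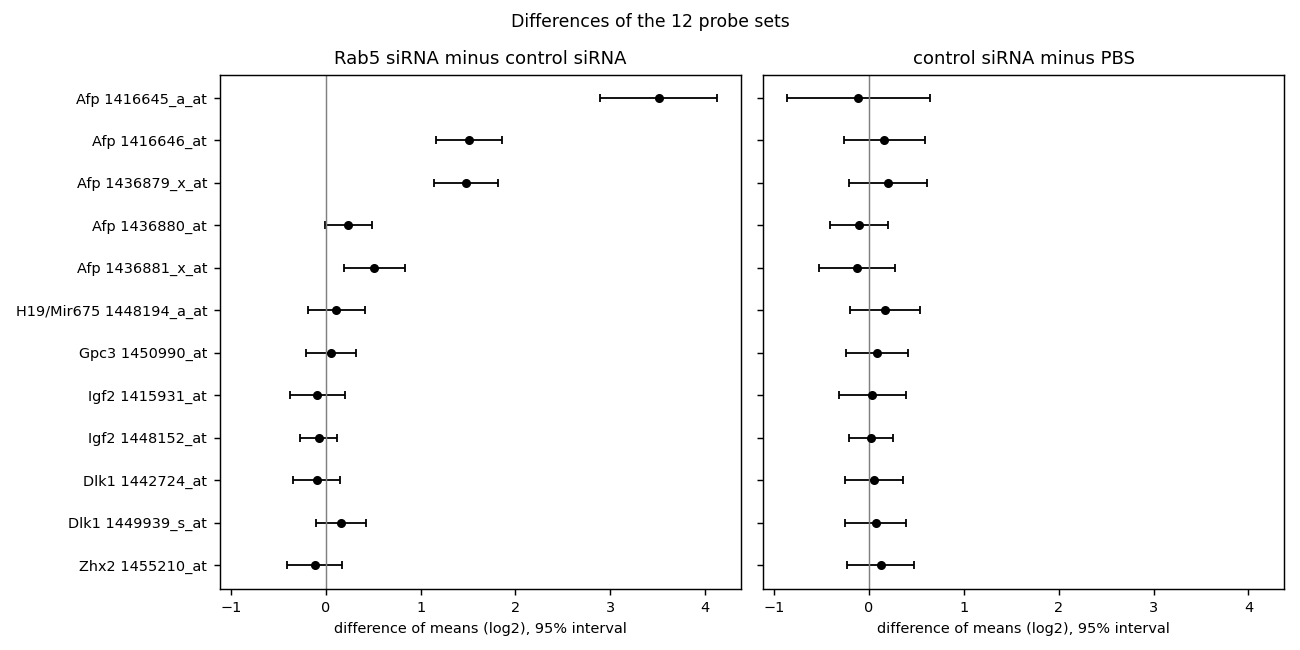
Differences of group means (log2, points) with 95% intervals (bars) are shown for the 12 probe sets, Rab5 siRNA minus control siRNA on the left and control siRNA minus PBS on the right, which share the control siRNA livers. The Afp probe sets reach 3.51 on the left, while the 7 probe sets of the other genes lie between -0.12 and 0.16, and on the right all 12 lie between -0.13 and 0.20. The Afp intervals on the left are not adjusted for the choice of Afp by this contrast.

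For control siRNA against PBS limma called 0 of the 45037 probe sets (0%), with 2081 at an unadjusted p under 0.05. The 7 probe sets of the other genes differed by 0.02 to 0.17. For Rab5 siRNA against PBS, where 7.82% of all probe sets were called, 0 of these 7 passed and their differences lay between -0.06 and 0.28. With 2 PBS livers these comparisons are coarse.

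Transcription factors that act on Afp, or in the pathways around it, moved in both directions, 2 of 15 up and 2 down (median -0.12), beside 14.6% of all genes called. Across the alternatives 1 to 4 of them rose and 1 to 4 fell, with 2 up and 4 down without control siRNA replicate 1, and 1 down without Rab5 siRNA replicate 2 or 4 or control siRNA replicate 2 or 3. Cebpa, a factor of mature hepatocytes, had 9.85, 9.42, 9.50 and 9.00 with Rab5 siRNA, against 10.15, 10.50, 10.35 and 10.27 with control siRNA, and 10.27 and 10.41 with PBS. All Rab5 siRNA values lay below all others (-0.88, SE 0.149, adjusted p = 0.00111). The forkhead factor Foxa3 had 10.01, 9.86, 10.05 and 9.56 with Rab5 siRNA, against 9.37, 9.52, 9.31 and 9.15 with control siRNA. It rose over control siRNA (0.54, SE 0.122, adjusted p = 0.00922), yet the PBS livers, at 9.58 and 9.68, lay within the Rab5 siRNA range.

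The other called pair was Nfix and Smad2. Nfix, an NF1 factor, fell by 0.47 on the log2 scale (adjusted p = 0.0230), with 0.0527 and 0.0596 without Rab5 siRNA replicates 2 and 4, and 0.0598 and 0.0654 without control siRNA replicates 2 and 3. Smad2, a mediator of TGF-beta signals, rose by 0.41 (adjusted p = 0.0145), while its other probe set stood at 0.05. Nr5a2 (-0.40, adjusted p = 0.0580), Nfia (-0.34, adjusted p = 0.0535) and Foxa1 (0.32, adjusted p = 0.0811) fell short of the threshold, although 1 of 4 probe sets of Nr5a2 and 1 of 6 of Nfia were called down. Hnf4a (-0.17), Foxa2 (0.08) and Cebpb (0.01) lay closer to 0.

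Of 21 other genes known from fetal liver, or shared by embryo and tumour, 3 rose and 1 fell, beside 8.62% up and 6% down among all genes. The list's median was -0.04, and the members called were Scd2, Ahsg, Pkm and Fabp5. Scd2, a desaturase of fetal liver, had 5.17, 6.01, 6.11 and 6.06 with Rab5 siRNA, against 4.13, 4.39, 4.16 and 4.47 with control siRNA, and 4.03 and 4.38 with PBS (difference 1.55, SE 0.180, adjusted p = 4.15e-05). Like Afp, it was lowest among the Rab5 siRNA livers in replicate 1, and of its 3 probe sets this one was called. Fetuin-A (Ahsg), made by fetal and adult hepatocytes, rose by 0.69 (SE 0.0936, adjusted p = 0.00016). The glycolytic Pkm rose by 0.57 (adjusted p = 0.0179), with 0.0572, 0.0646 and 0.0587 without Rab5 siRNA replicate 2, Rab5 siRNA replicate 3 and control siRNA replicate 2. The fatty acid carrier Fabp5 fell by 1.31 on the log2 scale (adjusted p = 0.00594), a call lost with a trended, robust variance model (adjusted p = 0.0512).

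The RNA-binding oncofetal genes did not pass. Igf2bp3, which binds Igf2 mRNA, stood at -0.18 (adjusted p = 0.315), Lin28b, a blocker of let-7 maturation, at -0.12 (adjusted p = 0.452) and the stem cell factor Sall4 at -0.24 (adjusted p = 0.294).

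**Figure D4:**
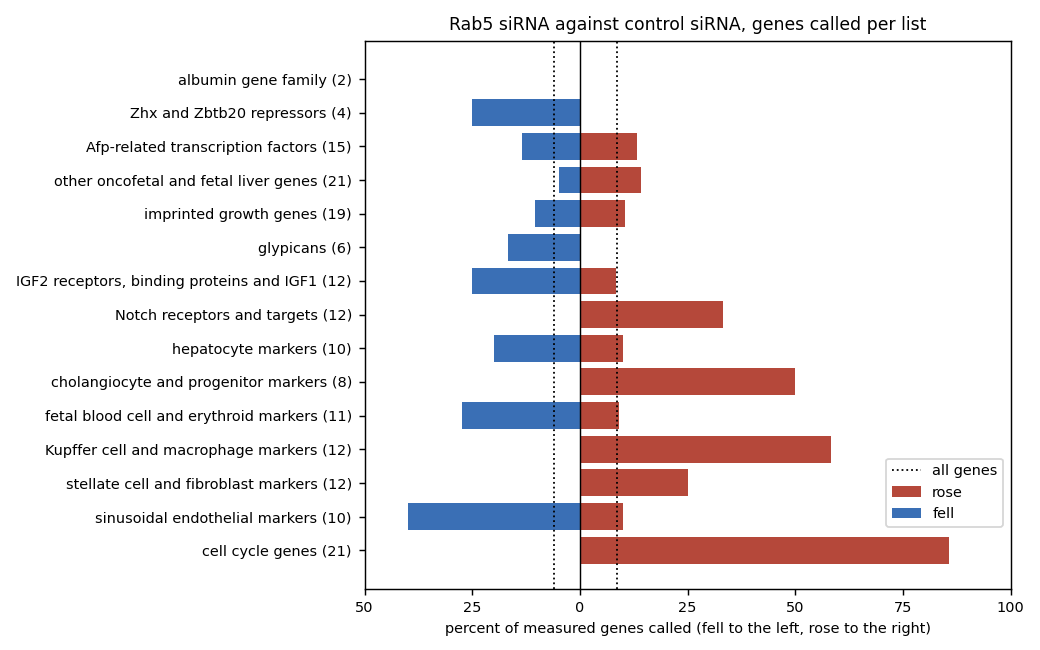
The share of measured genes (number in brackets, Afp left out) called up or down for Rab5 siRNA against control siRNA is drawn for each gene list, up to the right and down to the left, with dotted lines at the shares among all genes (8.62% up and 6% down). The lists around the fetal genes, at the top, hold 0 to 4 called genes in either direction, while 18 of 21 cell cycle genes rose.

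Markers of other cells and of dividing cells moved in the same livers as Afp. Among all genes 8.62% rose and 6% fell, the shares to set beside the list counts. Cell cycle genes rose in 18 of 21 (median 1.81), and their mean level stood 1.42, 1.73, 1.55 and 1.90 above the control siRNA mean in Rab5 siRNA replicates 1 to 4. In PBS livers that level was -0.61 and -0.61, below the control siRNA livers (-0.37 to 0.17), with 0 of the 21 genes called. The brightest Afp probe set showed no such step (control siRNA minus PBS -0.11). Over the 5 Afp probe sets this difference ranged from -0.13 to 0.20. Only in 1436879_x_at did all control siRNA livers lie above both PBS livers. Of 12 Kupffer cell and macrophage markers 7 rose and 0 fell (median 0.68), but 4 rose without Rab5 siRNA replicate 3 and 9 without replicate 1. Their mean levels stood 0.20, 0.73, 0.77 and 0.77 above the control siRNA mean in Rab5 siRNA livers, against -0.22 to 0.14 in control siRNA livers. Replicate 1 was lowest here, as for Afp. Of the 10 arrays these 4 were also those with the most Afp, and the part of either group of cells in the Afp signal was not tested.

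Of 8 cholangiocyte and progenitor markers 4 rose and 0 fell (median 0.41), with mean levels of 0.55, 0.61, 0.71 and 0.70 above the control siRNA mean, against -0.04 to 0.04 in control siRNA livers. Among all genes 8.62% rose and 6% fell. Krt18 (1.67, adjusted p = 1.99e-06) and Krt8 (1.59, adjusted p = 4.19e-06), keratins that hepatocytes also make, led the list. The adhesion protein Cdh1 (1.02, adjusted p = 3.55e-05) came next. This list is called progenitor below, although the step of its mean level came mostly from these keratins and Cdh1. Krt19 (0.04, adjusted p = 0.891), Krt7 (-0.09, adjusted p = 0.743) and Epcam (0.36, adjusted p = 0.162), more typical of bile duct cells, did not pass. Sox9 was called (0.45, adjusted p = 0.0444), but not without Rab5 siRNA replicate 1, 2 or 3 (0.0895, 0.0731 and 0.131) or without control siRNA replicate 2, 3 or 4 (0.117, 0.127 and 0.0638). Dlk1, a hepatoblast marker, is described above.

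Markers of blood cell precursors, which fill the fetal liver, did not rise as a list, where 8.62% of all genes rose and 6% fell. Of 11 fetal blood cell and erythroid markers 1 rose and 3 fell (median -0.14), and their mean level was -0.28, -0.21, -0.31 and -0.33 in Rab5 siRNA livers, against -0.13 to 0.08 in control siRNA livers. The embryonic globins Hbb-y (0.03, adjusted p = 0.932), Hbb-bh1 (0.02, adjusted p = 0.954) and Hba-x (-0.16, adjusted p = 0.426) did not pass and were dim throughout. The erythroid enzymes Alas2 (-1.67, adjusted p = 4.02e-05) and Car1 (-1.24, adjusted p = 6.64e-05) fell, as did the factor Klf1 (-0.57, adjusted p = 0.0161; 0.0507, 0.0560 and 0.0528 without Rab5 siRNA replicates 2 and 4 and control siRNA replicate 1). The transferrin receptor Tfrc, found in many dividing cells, rose (0.97, adjusted p = 0.0150), in 1 of its 3 probe sets and with overlapping groups. Its adjusted p was 0.0566 without Rab5 siRNA replicate 2 and 0.0532 without control siRNA replicate 1. For Rab5 siRNA against PBS Tfrc stood at 0.53 (adjusted p = 0.370).

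The other lists were mixed, beside 8.62% up and 6% down among all genes. Notch receptors, ligands and targets, the pathway to whose ligands Dlk1 is related, rose in 4 of 12 and fell in 0, with Hes1 at 0.71 (adjusted p = 0.00466) and a list median of -0.05, but in 0 of 12 when the arrays numbered 2 were dropped, a choice made after seeing the data. Hepatocyte markers rose in 1 of 10 (Ahsg) and fell in 2 (median -0.11). Those that fell were Tat (-1.37, adjusted p = 4.14e-06) and Cps1 (-0.35, adjusted p = 0.0466). The Cps1 call was lost without Rab5 siRNA replicate 1, 3 or 4, or without control siRNA replicate 1, 2 or 4. Stellate cell and fibroblast markers rose in 3 of 12 and fell in 0 (median 0.25), but rose in 6 without Rab5 siRNA replicate 1. Sinusoidal endothelial markers rose in 1 of 10 and fell in 4 (median -0.18), but 2 fell without Rab5 siRNA replicate 4 or control siRNA replicate 3. With the arrays numbered 2 dropped, calls were 1 up and 1 down among the imprinted genes and among the transcription factors, 0 among the glypicans, and 0 up and 3 down in the IGF2 list. In the same setting 0 endothelial markers rose and 1 fell, while 18 of 21 cell cycle genes, 5 Kupffer cell markers and 3 progenitor markers rose. Smad2 (adjusted p = 0.0863), Sgce (adjusted p = 0.0755) and Hes1 (adjusted p = 0.0529) were then not called.

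**Figure D5:**
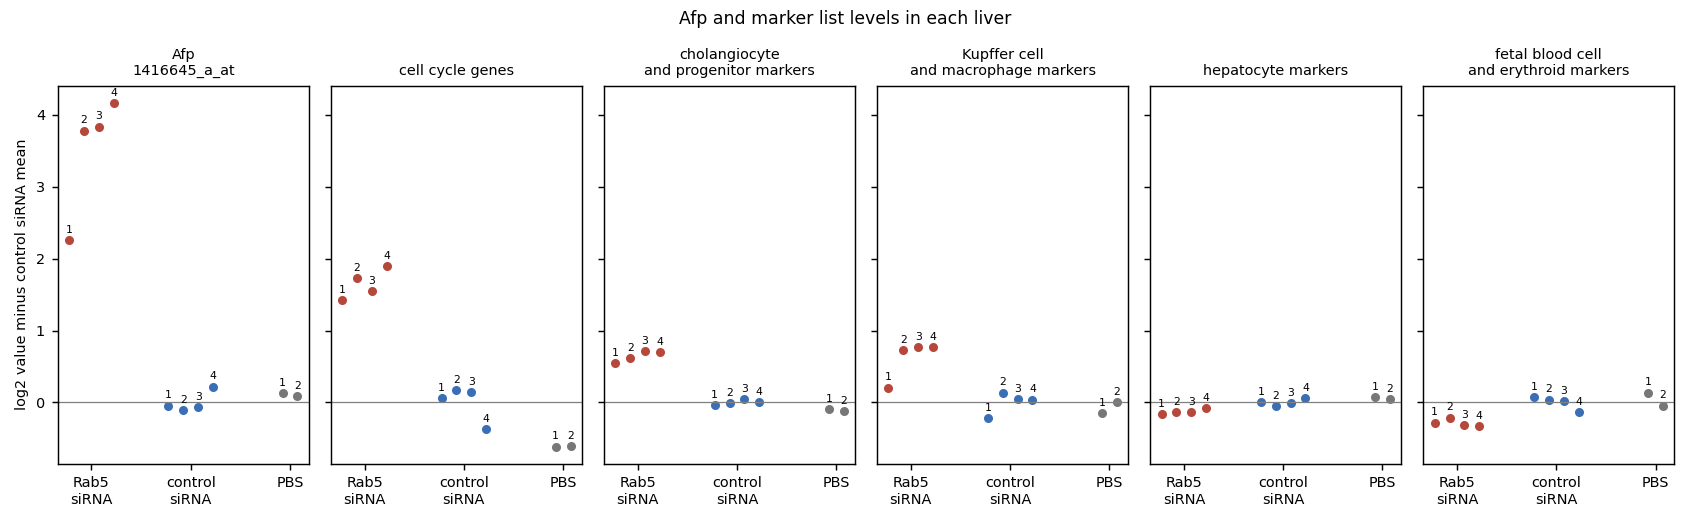
Each point is a liver, numbered by replicate, at its log2 value minus the control siRNA mean, for the brightest Afp probe set and for the mean of 5 marker lists (Afp left out). Afp, cell cycle, progenitor and Kupffer cell levels are higher in all 4 Rab5 siRNA livers than in all other livers, and replicate 1 is the lowest of them in each. The progenitor level is the mean of the cholangiocyte and progenitor list, in which Krt8, Krt18 and Cdh1 moved most.

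The genes whose pattern was most like that of Afp were sought among 19066 named probe sets above the table median, by Pearson's r with the brightest Afp probe set over the 10 arrays. The 5 highest were Anxa2, an annexin of membranes (r = 0.994), Cstb, an inhibitor of lysosomal cathepsins (0.993), the non-muscle myosin Myh10 (0.992), the RNA helicase Ddx39a (0.992) and the stress granule protein G3bp1 (0.990). Such values mostly reflect the step between Rab5 siRNA and the other livers, which many genes shared. Anxa2 had 9.28, 10.21, 10.55 and 10.74 with Rab5 siRNA, against 7.22, 7.30, 7.08 and 7.34 with control siRNA, and 7.14 and 6.91 with PBS. As with Afp, replicate 1 was the lowest Rab5 siRNA liver and replicate 4 the highest.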

How the data were processed

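RNA from 10 mouse livers was hybridised to Affymetrix mouse genome arrays, per the labels. The deposited table holds log2 values, 1 for each of 45101 probe sets and each array. Affymetrix Expression Console, RMA and Partek 6.6 were used, in an order not given, per the submitters' processing notes. No genome build is given in the sources used here. Array medians lay between 4.29 and 4.37.

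The 64 array control probe sets were left out. The platform annotation gave 1 symbol to 34945 of the remaining 45037 probe sets, several to 932 and none to 9160. In limma 3.58.1 (lmFit, eBayes; R 4.3.3) the 10 arrays were modelled together by their 3 group means, with no filter on low values, and p-values were adjusted over all probe sets (Benjamini-Hochberg). In lists, the probe set with the highest mean stood for its gene. SE and 95% intervals are the moderated ones. The fit was tested on simulated data.

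The members and lists were chosen with earlier results of these data known. The rule for named genes took every member probe set, the next largest rises after Afp, up to 4 called genes with the largest change per list (or up to 3 as values), and the 5 genes most like Afp. Genes named outside it, such as Igf2r, Meg3, Rian, Igf1r, the factors that fell short, Krt7, Krt19, Epcam, the embryonic globins, Igf2bp3, Lin28b and Sall4, were chosen after their values were seen.

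Alternatives were filters, 1 probe set per gene, other normalizations, other variance models, a replicate block and leaving out arrays. The number of arrays limits the precision.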

Additional observations from a re-analysis of the deposited data

Results flagged for a closer look

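In 24 groups of 4 values (12 probe sets, Rab5 and control siRNA), 3 held a liver far from the other 3 by Dixon's test, where chance gives about 1 in 20 groups. All were Rab5 siRNA livers. Igf2 (1448152_at) was 4.57 in replicate 3, with 4.73 to 4.75 in the others. Zhx2 was 5.92 in the same liver, with 5.63 to 5.66 in the others. Dlk1 (1442724_at) was 3.87 in replicate 4, with 4.10 to 4.14 in the others. No Afp probe set was among them.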

How the results depend on the processing

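None of the 12 probe sets carried a call that could be lost, since Afp was not tested and the others did not pass. Of their 621 alternative values under 20 settings the sign turned in 30, at most 0.25 in size, and H19 alone gained a call, against PBS without PBS replicate 1. The brightest Afp probe set stayed between 3.29 and 3.93 for Rab5 minus control siRNA. The 4931 probe sets called for Rab5 against control siRNA became 2993 with 1 probe set per gene after a filter at the table median (12855 tested), 3645 to 5621 with single arrays left out, and 2592 when the arrays numbered 2 were dropped, a choice made after seeing the data. Those arrays had the largest excess of 3' over 5' signal of their groups in both Gapdh and Actb. In Gapdh it was 2.67 with Rab5 siRNA, 2.86 with control siRNA and 2.58 with PBS. In Actb it was 2.75, 3.23 and 3.13 in the same order. For control siRNA against PBS the count of 0 became 4 with quantile normalization, 1 with the replicate block and 0 to 20 with single arrays left out, reaching 20 without control siRNA replicate 4 and 6 without control siRNA replicate 1. For Rab5 siRNA against PBS the 3524 became 2201 with 1 probe set per gene after the same filter, 1229 without the arrays numbered 2 and 1686 to 4196 with single arrays left out, the lowest without PBS replicate 1 (1686) and PBS replicate 2 (1936). The cause was not tested. Replicate numbers were not taken as pairs, since no label says that they mark one and not every pair passed an r of 0.1: same-numbered Rab5 and control siRNA livers correlated in their deviations with r of 0.293, 0.0567, 0.125 and 0.223. Control siRNA replicate 2 correlated best with Rab5 siRNA replicate 4 (0.0839), the other control livers with their own number. Same-numbered PBS and control siRNA livers had r of 0.100 and 0.145, and PBS and Rab5 siRNA livers 0.112 and 0.0413. The deviations of the PBS livers mirror each other. All same-numbered pairs were positive, and what a shared number stands for was not tested. With the replicate block 6103 of 45037 probe sets were called for Rab5 against control siRNA (3454 up and 2649 down), more than the 4931 of the main fit. In that setting 4 of 15 transcription factors rose and 4 fell, and 5 of 21 fetal liver genes rose and 1 fell. Sox9 was then not called (adjusted p = 0.0511). Without the arrays numbered 2, Notch genes were called in 0 of 12. Dim signals limit the other fetal genes: most of their probe sets lay below the table median.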
